A study of Bos taurus with 11 samples.

Results

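The LIF and IL6 family signals through a shared receptor chain, and 10 of its genes were examined in the endometrium of fertile and subfertile cows: the ligands LIF, IL6 and IL11, the receptor chains LIFR, IL6R, IL6ST and OSMR, the transcription factor STAT3, and the inhibitors SOCS1 and SOCS3. They were found as the non-control array probes whose gene name in the scanner files equals one of these symbols. This gave 25 of 43653 probes for 9 of the 10 genes, among 25325 names on the array. No probe carried the name IL11, which was therefore not analysed here.

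Endometrial biopsies had been collected on day 7 of the oestrous cycle, and each cow had 1 Cy3-labelled array of whole-tissue RNA. The 6 fertile cows (*Bos taurus*) had become pregnant within 3 services or embryo transfers and did so again at the next transfer. The 5 subfertile cows had failed 3 times in a row, with no abnormality detected in the genital tract and cycles that looked normal. The labels name no treatment, genotype, breed or age for either group.

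In this family, LIF binds LIFR, and OSM binds LIFR or OSMR, each together with IL6ST (gp130). IL6 binds IL6R together with IL6ST, and each assembled receptor lets JAK kinases phosphorylate STAT3. STAT3 then switches on SOCS3, which blocks the receptor complex and closes a negative feedback loop. In the uterus LIF is best known from mice, where it is needed for implantation, and endometrial epithelium and stroma carry the receptors.

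The probe sequences that the findings below turn on were as follows, each written 5′ to 3′ in lower case. The LIF and IL6 probes read the ligands, the IL6R and SOCS1 probes passed the test while other probes of those genes did not, and the SOCS3 probe is the only one for that gene.

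LIF A_73_P109331: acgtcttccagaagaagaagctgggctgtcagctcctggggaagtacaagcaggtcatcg

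IL6 A_73_P035016: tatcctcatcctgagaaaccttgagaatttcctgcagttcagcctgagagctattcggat

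IL6R A_73_P092326: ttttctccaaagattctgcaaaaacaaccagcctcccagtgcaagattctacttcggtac

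SOCS1 A_73_P058206: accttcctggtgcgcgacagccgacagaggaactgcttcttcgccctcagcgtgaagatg

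SOCS3 A_73_P044671: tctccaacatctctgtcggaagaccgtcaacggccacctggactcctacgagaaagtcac

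The scanner files place these probes, on genome build HGSC Btau_3.1, at chr17:72762266-72762325 on the minus strand for LIF, chr4:32760426-32760485 on the plus strand for IL6, chr3:17512332-17516692 on the minus strand for IL6R, chr25:10957083-10957142 on the minus strand for SOCS1 and chr19:55418135-55418194 on the plus strand for SOCS3. The IL6R probe spans 4361 bases of genome for its 60 bases, so it is not 1 unbroken block of that genome. Exon and UTR annotation of that build was not used here.

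Levels are log2 processed signals relative to the array's own 75th percentile, and differences are subfertile minus fertile, with n = 6 fertile and n = 5 subfertile cows throughout. A probe counts as detected where the scanner's flag calls it well above background, probes detected on 5 or more arrays were tested with limma, and adjusted p-values are Benjamini-Hochberg values over all 31877 tested probes, with a threshold of 0.05. Levels of different probes are not comparable with one another, since each probe binds with its own strength. In a biopsy, fewer cells of a type and less RNA per cell cannot be told apart.

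The arrays of the groups differed as a whole. Median processed signal ran from 161 to 452 on fertile and from 54.3 to 92.7 on subfertile arrays, and the share of detected probes from 72.0% to 77.4% and from 64.4% to 74.1%. None of the 6 known slides and none of the 4 known scan days held both groups, so that slide, day and group cannot be told apart. For fertile cow 6 the slide and day are unknown. All 11 epithelial and all 12 stromal markers present on the array passed the filter on dim signal. Of the epithelial ones 6 were higher in subfertile cows and none lower (limma, adjusted p below 0.05), and of the stromal ones 2 were higher and 2 lower. Of the other marker lists, 2 of 9 endothelial, 2 of 7 smooth muscle, 1 of 11 T and NK cell and 1 of 4 B cell genes were higher and none lower, 1 of 7 neutrophil genes was higher and 1 lower, and 1 of 10 macrophage genes was lower. Over all 18547 genes with 1 probe each, 14.2% were higher and 7.89% lower. VWF was the one listed marker with a probe that no array detected. The mean of epithelial minus stromal markers ran from -0.86 to 0.11 in fertile and from 0.12 to 0.77 in subfertile cows.

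In day 7 endometrium each receptor chain and STAT3 had a probe detected on all 11 arrays, whereas the ligands LIF and IL6 were mostly at or near background. Other probes of LIFR, OSMR and STAT3 were dim and detected on fewer arrays. LIF was not detected in any fertile cow on either of its probes, and IL6 was detected in only some cows of each group. The receptor subunits IL6R and IL6ST were detected on all 11 arrays by every probe. In all, 18 of the 25 probes, covering 7 genes, passed the filter and were tested, and 13 were detected on every array.

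**Figure D1:**
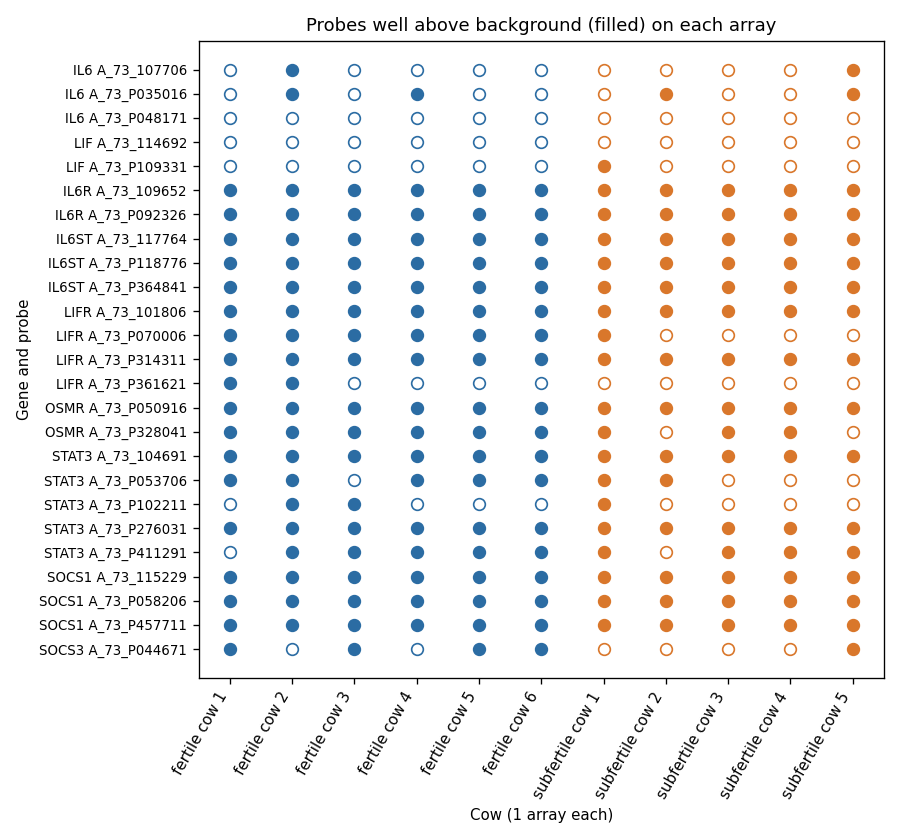
Detection of each of the 25 probes (rows) on each of the 11 arrays (columns, blue fertile, orange subfertile); a filled circle marks a probe flagged well above background. The LIF and IL6 rows are mostly open, and the IL6R and IL6ST rows are filled throughout.

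LIF, leukaemia inhibitory factor, had 2 probes. The one at chr17:72761169-72761228 was not well above background on any of the 11 arrays. The other, whose sequence is given above, was detected only in subfertile cow 1, at -6.20. The remaining subfertile cows gave -7.94, -8.08, -7.83 and -7.67 there, and the fertile cows gave -8.88 to -8.49, with a median of -8.67. Those values lie below detection and have no order between cows. No fold is given, because the subfertile mean lay below the lowest signal that counted as detected on the fertile arrays (-7.05 to -6.58). On the subfertile arrays that limit was higher, at -6.24 to -5.40.

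IL6, an inflammatory cytokine made by macrophages and stromal cells among others, had 3 probes by name, but 1 of them belongs to another gene by its accession. That probe, A_73_P048171, carries an accession that the RefSeq gene table (ARS-UCD2.0) assigns to LOC517016, the array places it on chromosome 8 while the other IL6 probes lie on chromosome 4, and it was not detected on any array. On A_73_P035016, IL6 was detected in fertile cows 2 and 4 and in subfertile cows 2 and 5. Its level ran from -8.65 to -5.37 in fertile cows, with a median of -6.90. The subfertile cows 1 to 5 stood at -6.70, -5.00, -7.91, -7.15 and -3.99. On A_73_107706 IL6 was detected in fertile cow 2 and subfertile cow 5 only, and subfertile cow 5 was again the highest of all 11 cows, at -3.97 against -5.42 for the next. Neither probe reached the 5 arrays needed for a test, the groups overlapped on both, and spread within groups was wide (SD of 1.20 in fertile and 1.61 in subfertile cows on A_73_P035016). The ranges, the overlap and the SDs rest mostly on signals below detection.

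Other ligands of the family varied in detection, and EBI3, for example, was detected on every array. Of 9 listed ligands, 6 were named on the array and 3 passed the filter, of which 1 was lower in subfertile cows (33.3% called, against 22.1% of all genes with 1 probe each, and 7.89% called as lower). OSM, the ligand of OSMR, was not detected on any array. IL27, a ligand that also signals through IL6ST, was detected on 5 fertile and on no subfertile arrays, and its fitted difference was -1.12 ± 0.27 (SE, limma, adjusted p = 0.0151). The share of 33.3% rests on IL27 alone. It met the filter through the fertile arrays only, and its subfertile values were below detection. The fertile mean (-6.23) barely exceeded the detection limit of subfertile cow 1 (-6.24) and lay below that of the other subfertile arrays, so no fold is given. With normexp background correction its sign turned, to 1.16.

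Across the tested members 4 of 18 probes passed, 22.2%, and 22.2% of all tested probes on the array did, so the family was called no more often than the array as a whole. Of the 4 calls 3 were higher and 1 was lower in subfertile cows. Over the whole array 14.8% of tested probes were higher and 7.38% lower, although with quantile normalization this split was 3243 higher to 3146 lower and with median centring 3136 to 3449. The median difference was 0.10 for the 18 member probes and 0.07 for all tested probes. The groups overlapped at every one of the 18 probes, where 13.5% of all tested probes had no overlap. For each of the 4 genes with a call (IL6R, OSMR, STAT3 and SOCS1), other tested probes of the same gene did not pass. All 4 calls were lost when slide, or scan day, was fitted as a random effect, although 4 and 3 of the 18 probes then had an unadjusted p below 0.05 in limma.

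**Figure D2:**
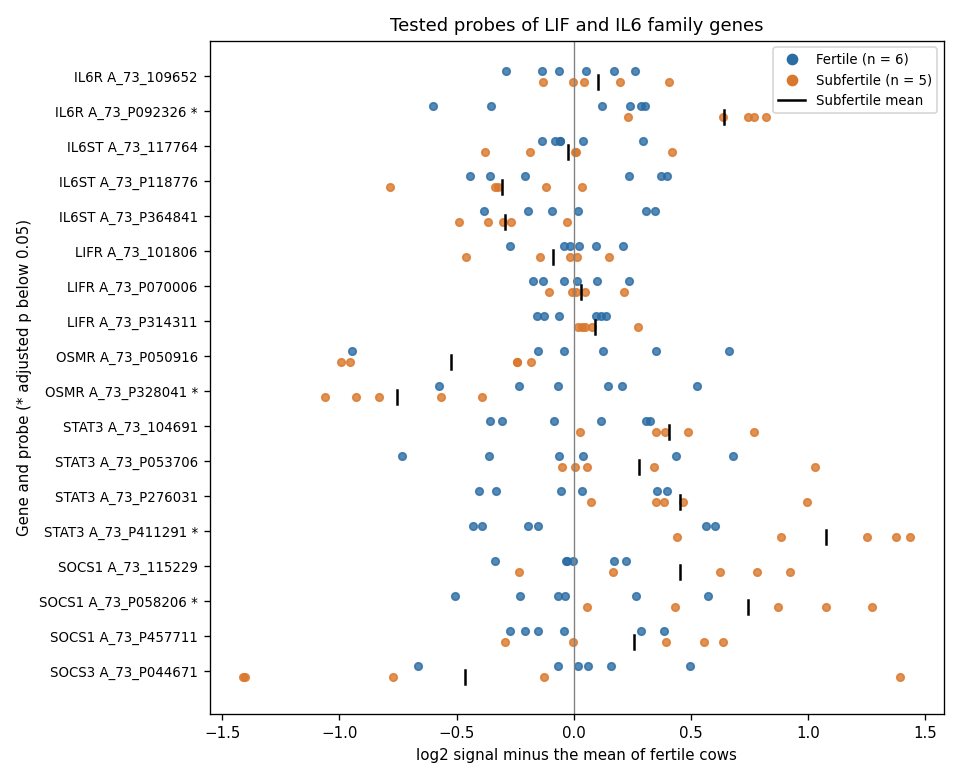
Each point is 1 cow, as log2 signal minus the fertile mean of that probe, for the 18 tested probes; black ticks mark the subfertile mean and asterisks the 4 probes with adjusted p below 0.05. Fertile and subfertile points overlap at every probe, and the SOCS3 points of subfertile cows spread most widely, with 4 of the 5 below detection.

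LIFR, the receptor chain that binds LIF, had 4 probes, and none of its 3 tested probes passed. On A_73_P314311 fertile cows ran from -4.97 to -4.68, with a median of -4.80, and the subfertile cows 1 to 5 stood at -4.78, -4.79, -4.76, -4.54 and -4.73. The groups overlapped, and the difference of 0.09 had a 95% interval of -0.12 to 0.30 (adjusted p = 0.530). On A_73_101806 the difference was -0.09 (95% interval -0.37 to 0.19), and on A_73_P070006, detected on 1 of 5 subfertile arrays, it was 0.03 (-0.19 to 0.26). Since 4 of the 5 subfertile values on A_73_P070006 were below detection, a lower level there could not have been measured. These small differences depended on the background correction: with normexp all 3 probes passed as higher in subfertile cows, at 0.97 for A_73_101806, 1.19 for A_73_P070006 and 0.94 for A_73_P314311 (adjusted p = 9.2e-05, 3.4e-05 and 1.5e-05), where the median of all probes moved to 0.33. With quantile normalization the last 2 lay below 0. The last LIFR probe, A_73_P361621, was detected on 2 fertile and no subfertile arrays and was not tested.

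IL6ST, the gp130 chain shared by all these receptors, had differences below 0 on each of its 3 probes, and none passed. On A_73_P364841 the fertile cows ran from -3.96 to -3.23, with a median of -3.61. The subfertile cows 1 to 5 stood at -3.61, -4.07, -3.85, -3.94 and -3.88, with cow 2 below the fertile range and the others inside it. The difference was -0.29 ± 0.15 (adjusted p = 0.174), and it was 0.44 with normexp correction. A_73_P118776 gave -0.31 ± 0.20 (adjusted p = 0.293) and A_73_117764 gave -0.03 ± 0.14, with a 95% interval of -0.34 to 0.28.

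IL6R, the chain specific to IL6, had 2 probes of which 1 passed. On A_73_P092326 the fertile cows ran from -4.10 to -3.20, with a median of -3.32, and the subfertile cows 1 to 5 stood at -2.73, -2.69, -2.76, -2.87 and -3.27. Subfertile cow 5 lay inside the fertile range and the other 4 above it. The signal was higher by 0.64 ± 0.19, 1.56-fold (adjusted p = 0.0319). It no longer passed without fertile cow 6, or without any one of subfertile cows 1 to 4 (adjusted p = 0.0527 to 0.0777). The other probe, A_73_109652 at chr3:17504749-17504808, ran from 2.62 to 3.17 in fertile and from 2.77 to 3.31 in subfertile cows, a difference of 0.10 with a 95% interval of -0.18 to 0.39 (adjusted p = 0.607). IL6R thus rose on 1 of 2 probes, and the interval of the first, 0.23 to 1.05, overlaps that of the second. The difference between the probes was not tested.

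OSMR, which pairs with IL6ST to bind oncostatin M, had differences below 0 on both probes and passed on 1. On A_73_P328041, whose aligned part lies at chr20:37770177-37770205, fertile cows ran from -5.20 to -4.10, with a median of -4.58. The subfertile cows 1 to 5 stood at -5.55, -5.69, -5.02, -5.19 and -5.45, with cows 3 and 4 inside the fertile range. It fell by 0.76 ± 0.19 on the log2 scale (adjusted p = 0.0185), detected on 6 of 6 fertile and 3 of 5 subfertile arrays. The values of subfertile cows 2 and 5 were below detection, and the size of the fall rests in part on them. With normexp correction the sign of the difference turned, to 0.73, and without subfertile cow 2 the adjusted p was 0.0511. The second probe, A_73_P050916, detected in all cows, was at -0.52 ± 0.27 (adjusted p = 0.186). There fertile cow 6 stood at -3.37, far below the other fertile cows (-2.58 to -1.76), and without it the difference was -0.71 (adjusted p = 0.0394).

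With the epithelial-to-stromal marker balance as a covariate, none of the 4 members kept its call (limma, 5 of 18 probes with an unadjusted p below 0.05). The OSMR probe that passed went to -0.29 (adjusted p = 0.504), while IL6R stood at 0.83 (0.115), STAT3 at 0.78 (0.230) and SOCS1 at 1.19 (0.0686). That balance did not overlap between the groups, although the highest fertile and lowest subfertile values lay close together, and its part in these differences cannot be told apart from the group.

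Other receptors of the family had 4 tested genes of 5 listed, of which 2 were higher and none lower (median difference -0.04). Over 18547 genes with 1 probe each, 14.2% were higher and 7.89% lower. The largest difference was that of CNTFR, the receptor for ciliary neurotrophic factor, at 2.44 ± 0.62 (adjusted p = 0.0173). Fertile cows ran from -2.81 to 0.56 there, with a median of -2.02, and subfertile cows from 0.41 to 1.55. Within the fertile group, however, the 2 cows on slide 2 exceeded the 2 on slide 1 by 3.15, more than the group difference. IL27RA rose by 0.36 ± 0.11 (adjusted p = 0.0407), but it did not pass without any one of 8 cows, nor with quantile normalization (0.154) or median centring (0.143). Its other probe also passed, at 0.98 (adjusted p = 0.00598). Of the proteases that shed IL6R from the cell surface, ADAM17 passed in opposite directions on 2 of its 4 tested probes, at -0.31 (adjusted p = 0.0198) and 0.49 (adjusted p = 0.00808), so no direction is given. ADAM10 was at -0.12 ± 0.10 (adjusted p = 0.424).

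STAT3, the transcription factor at the end of the pathway, had differences above 0 on all 4 tested probes and passed on 1. On A_73_P411291 fertile cows ran from -6.47 to -5.44, with a median of -6.21, and the subfertile cows 1 to 5 stood at -4.61, -5.60, -5.16, -4.79 and -4.67. All but subfertile cow 2 lay above every fertile cow. It rose by 1.08 ± 0.25, 2.11-fold (adjusted p = 0.0111), and passed on leaving out each of the 11 cows in turn (0.99 to 1.24). Detection on 5 of 6 fertile and 4 of 5 subfertile arrays shows that this signal was dim. The values of fertile cow 1 and subfertile cow 2 were below detection. Probes detected on no array also stood higher in subfertile cows without overlap, LIF A_73_114692 by 0.84 and A_73_P048171 by 0.92. The part of such a shift of dim signals in the STAT3 difference was not tested.

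The other tested STAT3 probes did not pass. On A_73_104691 fertile cows ran from 1.23 to 1.91, with a median of 1.60, and the subfertile cows 1 to 5 stood at 2.35, 1.61, 2.07, 1.94 and 1.97, so that 4 of 5 exceeded all fertile cows. The difference was 0.40 ± 0.17 (95% interval 0.04 to 0.77, adjusted p = 0.103). A_73_P276031 gave 0.45 ± 0.19 (adjusted p = 0.112), both this probe and A_73_104691 being detected on all 11 arrays. A_73_P053706, a dim probe detected on 5 fertile and 2 subfertile arrays, gave 0.28 ± 0.27 (adjusted p = 0.487), or -0.61 with the marker balance as a covariate. Subfertile cow 1 had the highest value of the 11 cows on each of the 4 tested probes. The array of this cow was also the highest for 16.1% of all genes with 1 probe each, the largest share of any array.

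The probe that passed has a near copy on the array, and the sequences of both are shown because they read nearly the same bases. A_73_P411291 (chr19:43753088-43753147, minus strand) shares 54 bases with A_73_P102211 (chr19:43753094-43753153, minus strand), with 3 mismatches, G17A, C33A and G38A, counted from 1 at the first shared base, with the base of A_73_P102211 first. Bases 17 to 46 of that stretch follow, with the mismatched bases in capitals.

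A_73_P102211: GaatacacgctccacaCctgaGatcagggg

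A_73_P411291: AaatacacgctccacaActgaAatcagggg

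A_73_P102211 was detected on 2 fertile and 1 subfertile arrays and was not tested. With 8 of its 11 values below detection, its difference between groups cannot be read, and it gives no check of the probe that passed.

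Of 10 listed JAK kinases and other STAT factors 7 were tested, of which none was higher and 2 were lower (28.6% called, against 22.1% of all genes called and 7.89% called as lower). Their median difference was -0.27, against 0.06 over 18547 genes with 1 probe each. JAK2, a kinase bound to gp130 receptors, ran from -1.20 to -0.79 in fertile and from -1.58 to -1.21 in subfertile cows, without overlap. It fell by 0.46 ± 0.11 (adjusted p = 0.0145), and 2 of its 3 probes passed. With normexp correction it was -0.25 (adjusted p = 0.0541), and with the marker balance as a covariate -0.27 (0.319). TYK2, another kinase of the pathway, fell by 0.33 ± 0.09 (adjusted p = 0.0197), with both of its probes past the threshold. Its fertile range was 1.53 to 1.79 and its subfertile values were 1.45, 1.30, 1.24, 1.37 and 1.23. With scan day as a random effect their adjusted p was 0.143 and 0.159, and with slide TYK2 was at 0.0563.

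SOCS1, an inhibitor that binds JAK kinases, had differences above 0 on its 3 probes and passed on 1, close to the threshold. On A_73_P058206 fertile cows ran from -5.02 to -3.94, with a median of -4.57, and the subfertile cows 1 to 5 stood at -4.46, -3.64, -3.24, -4.08 and -3.44. Cows 1 and 4 lay inside the fertile range. It was higher by 0.74 ± 0.24 (adjusted p = 0.0467). It did not pass without any one of 8 cows (fertile cows 1, 3, 4, 5 and 6, subfertile cows 2, 3 and 5), with quantile normalization (adjusted p = 0.101) or with median centring (0.0730). The other 2 probes overlap by 40 bases with 1 mismatch and so measure nearly the same stretch. They gave 0.45 ± 0.20 (adjusted p = 0.125) and 0.26 ± 0.19 (adjusted p = 0.357). The first of them passed without subfertile cow 1, at 0.62 (adjusted p = 0.0250).

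SOCS3, the feedback inhibitor that STAT3 induces, was detected on 4 of 6 fertile arrays and in subfertile cow 5 alone. Fertile cows ran from -6.81 to -5.65, with a median of -6.11 (SD 0.38), and the subfertile cows 1 to 5 stood at -6.28, -6.92, -7.56, -7.55 and -4.76 (SD 1.17). Subfertile cow 5 was above every other cow, and the values of subfertile cows 1 to 4 and fertile cows 2 and 4 are below detection and have no order. The difference was -0.46 ± 0.45 (95% interval -1.44 to 0.51, adjusted p = 0.482). Without subfertile cow 5 it was -0.93 (adjusted p = 0.0473), and with normexp correction it was 1.32. These fitted values and the subfertile SD rest mostly on signals below detection.

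Of 17 other inhibitors and adaptors 15 were tested, with 3 higher and 2 lower (33.3% called, against 22.1% of genes). PIAS4, a SUMO ligase of the family that restrains STAT factors, ran from 0.41 to 0.61 in fertile and from 0.85 to 1.09 in subfertile cows and rose by 0.45 ± 0.09 (adjusted p = 0.00465). PIAS2, of the same family, fell by 0.58 ± 0.12 (adjusted p = 0.00589) on its representative probe, and 2 of its 3 probes passed. Related SUMO ligases thus moved in opposite directions. With scan day as a random effect their adjusted p was 0.0749 and 0.0918.

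IL6 and SOCS3 were highest in the same animal, subfertile cow 5, whose array was also the dimmest of the 11. Probes detected on no array were also highest in this cow: LIF A_73_114692 stood 1.08 and A_73_P048171 stood 1.16 above the median of the other 10 cows, while SOCS3 stood 1.49 and the IL6 probes 2.91 and 3.46 above it. The part of the dim array in the SOCS3 and IL6 levels was not tested. FOS and JUNB, immediate-early genes that STAT3 can induce, were highest there too. FOS stood at 5.66 in that cow against 3.89 in the next highest and a median of 0.50 over the other 10. For JUNB the values were 4.53, 3.50 and 1.62. Fertile cows 1 and 6 and subfertile cow 3 also had high FOS (3.25, 3.89 and 3.86), and IL6 was not detected in them. MYC, CEBPD and MCL1 were highest in subfertile cow 5 as well. Of 16 tested STAT3 target genes, 5 were highest in this cow (31.2%), against 11.3% of all genes with 1 probe each. Such an excess was not particular to it: in fertile cow 4, 3 of the 16 were highest (18.8%), against 7.02% of all genes. Subfertile cow 5 and the genes named here were picked out after their values were seen. Macrophage marker means ran from -0.94 to 0.43 in fertile and from -0.55 to 0.51 in subfertile cows, and neutrophil markers ran from -0.87 to 0.78 and from -0.50 to 0.35. Their part in the IL6 signal was not tested.

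**Figure D3:**
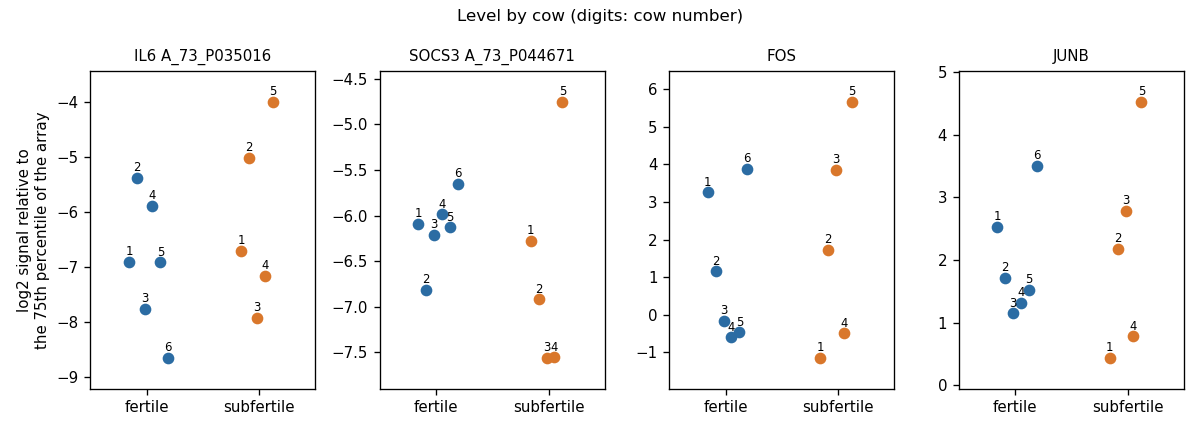
Level of IL6, SOCS3, FOS and JUNB in each cow (digit: cow number), as log2 signal relative to the 75th percentile of the array, each panel on its own scale. Subfertile cow 5 is the highest point in all 4 panels, at -3.99, -4.76, 5.66 and 4.53.

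Of 17 listed STAT3 target genes 16 were tested, and 1 was higher and 1 lower, 12.5% called against 22.1% of all genes. Their median difference was 0.19, against 0.06 for all genes. VEGFA, the endothelial growth factor, fell by 0.67 ± 0.15 (adjusted p = 0.0112) without overlap between the groups, and all 3 of its probes passed. It passed without each cow in turn and with slide as a random effect (0.0317), but not with scan day (0.116), and it was at 0.12 with normexp correction. CEBPB, a transcription factor of inflammation, rose by 1.92 ± 0.55 (adjusted p = 0.0293). Its fertile slides 2 and 1 differed by 2.70, more than the groups, and it did not pass without any one of 7 cows. FOS, at 0.74, did not pass (adjusted p = 0.709).

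Acute-phase genes, classical IL6 targets in the liver, had 9 tested of 15 listed, with 2 higher and none lower (median difference 0.03). That is 22.2% called, against 22.1% of all genes called and 14.2% called as higher. LBP, which binds bacterial lipopolysaccharide, ran from -4.81 to -3.78 in fertile cows, and the subfertile cows 1 to 5 stood at -2.69, -3.06, -3.73, -3.50 and -3.20, above all of them. It rose by 0.85 ± 0.22 (adjusted p = 0.0179). SERPINA3, a protease inhibitor, rose by 0.76 ± 0.20 (adjusted p = 0.0200), with subfertile cow 4 inside the fertile range. That call was lost without subfertile cow 2 or cow 5 (adjusted p = 0.0545 and 0.0504). Over all 7 pathway lists 15 of 56 tested genes passed, 26.8%, with 8 higher and 7 lower, against 22.1% of all genes. With slide as a random effect 8 passed and with scan day 0 (limma, 15 with an unadjusted p below 0.05). The 7 lower genes include IL27, which met the filter through the fertile arrays only.

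**Figure D4:**
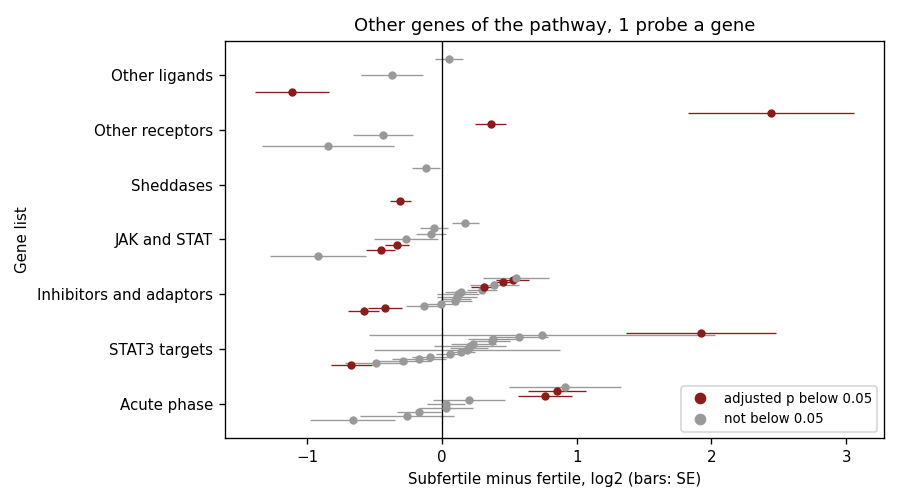
Subfertile minus fertile difference with its SE for the 56 tested genes of the 7 pathway lists, 1 probe a gene; dark red marks adjusted p below 0.05. CNTFR (2.44) and CEBPB (1.92) lie farthest to the right, and the JAK and STAT list has its 2 calls on the lower side.

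The genes whose values over the 11 arrays were most like those of a member were found by the smallest mean absolute difference of centred log2 values, among 23853 probes of named genes. For SOCS3 these were LPL (0.31), APOA4 (0.33) and FYB1 (0.33), where the median probe was at 0.69, although 6 of the 11 SOCS3 values matched were below detection. For STAT3 A_73_P411291 they were CARD10 (0.23), MTCH1 (0.24) and CAVIN1 (0.25), against a median of 0.61, and for STAT3 A_73_104691 they were ZNF789 (0.11), ATP6V0A1 (0.12) and COQ8A (0.13), against 0.35.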

How the data were processed

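The deposited scanner files hold the processed, mean and background intensity of 45220 spots on 11 one-colour Agilent arrays on a linear scale, made with Feature Extraction software from Agilent (version 10.5.1.1 in the submitters' processing notes). A table of log2 values by the authors, deposited beside them, matched the scanner files within 0.01 for 100% of probes relative to fertile cow 2, except on fertile cow 1 (17.0%). Its column medians were -0.08 to 0.09. Its values are log2 signals scaled within arrays and centred on each probe, judged from that comparison, and it served as an alternative.

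Outlier-flagged and control spots were left out, log2 processed signal was taken relative to the array's 75th percentile, and limma 3.58.1 (R 4.3.3) fitted the group alone with lmFit and eBayes. The arrays' number limits the precision. Names came from the scanner files by probe, not from the file of fertile cow 6, whose names are out of register, and for the pathway and marker lists from RefSeq accessions where matched (ARS-UCD2.0, names only). A gene outside the 10 members is represented by its tested probe with the highest mean. All probes of the 10 members are described, and of each pathway list the 2 genes with the smallest p, except 1 gene that is not reported here. The members and lists were chosen with earlier results of these data known. Same-numbered cows of the groups did not deviate together (correlations -0.21 to 0.22), so numbers were not treated as pairs. Steps were tested on simulated data.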

Additional observations from a re-analysis of the deposited data

Results flagged for a closer look

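In 50 sets of values (25 probes in each group) 2 held a cow far from the rest of its group by Dixon's test, where chance gives about 1 in 20. Subfertile cow 1 stood at -6.20 on the LIF probe A_73_P109331, with the next subfertile cow at -7.67. Subfertile cow 4 stood at -4.54 on the LIFR probe A_73_P314311, with the next at -4.73.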

How the results depend on the processing

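The array's 7067 calls became 17090 with normexp correction (87.4% higher), 12179 without the filter, 3672 with slide as a random effect, 977 with scan day, and 2249 with the marker balance as a covariate, and ran from 4527 (without subfertile cow 2) to 7298 on leaving out 1 cow. The 4 member calls became 11 of 18 with normexp correction, 2 of 13 on probes detected in every cow, and 0 with slide, scan day or the marker balance. They ran from 1 (without subfertile cow 2) to 4 on leaving out 1 cow, with 2 left without subfertile cow 3. The 15 pathway calls became 8 with slide, 0 with scan day and 4 with the marker balance, and 10 to 15 without 1 cow. With the replicate number as a block, a pairing the data do not bear out, 1 member and 7 pathway calls were left, and IL6ST A_73_117764 was at 0.033.

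Signs turned with normexp correction for IL6R A_73_109652 (-0.020), IL6ST A_73_117764 (0.14) and A_73_P364841 (0.44), LIFR A_73_101806 (0.97), OSMR A_73_P328041 (0.73), SOCS3 (1.32), IL27 (1.16) and VEGFA (0.12), where the median of all probes moved to 0.33. With quantile normalization they turned for IL6R A_73_109652 (-0.0043), LIFR A_73_P070006 (-0.10) and LIFR A_73_P314311 (-0.056), and with median centring for these LIFR probes (-0.064 and -0.0049). With the marker balance they turned for LIFR A_73_P314311 (-0.038), OSMR A_73_P050916 (0.31) and STAT3 A_73_P053706 (-0.61). Leaving out 1 cow gave -0.14 to 0.062 for IL6ST A_73_117764, -0.15 to 0.0016 for LIFR A_73_101806 and -0.014 to 0.078 for LIFR A_73_P070006. The cause of these changes was not tested. The authors' table and a trended robust variance gave the same number of member calls.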

Other observations

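CNTFR and CEBPB, taken from different lists, had nearly the same profile over the 11 arrays. Their centred log2 values differed by 0.262 on average, where the median probe differed from CNTFR by 1.46 and 10 of 31640 probes were closer. On both, fertile cows 2 and 5, which shared a slide, lay near the subfertile cows and apart from the other fertile cows.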
